A study of Homo sapiens with 4 samples.

Results

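The m6A readers and erasers are the proteins that bind and remove N6-methyladenosine (m6A), the methyl mark placed on adenosines of messenger RNA. Their mRNAs were followed in SKBR3, a breast cancer cell line with amplified HER2, by taking the 10 rows with these gene symbols from the 56271 rows of the deposited count table. The 10 genes were the YTH-domain readers YTHDF1, YTHDF2, YTHDF3, YTHDC1 and YTHDC2, the IGF2BP readers IGF2BP1, IGF2BP2 and IGF2BP3, and the demethylases FTO and ALKBH5.

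Poly-A RNA was sequenced from 2 eGFP control libraries and 2 VIRMA-overexpressing libraries. VIRMA is the scaffold of the complex that writes m6A. Per the study's methods, the cells were transduced with a lentiviral vector that expresses eGFP from the human ubiquitin C promoter, alone in the controls or joined to HA-tagged full-length VIRMA, and eGFP-positive cells were sorted and expanded, so both groups are sorted populations of transduced cells. The culture text of all 4 libraries describes a low-oxygen chamber, which the study's methods give for a separate assay, so the oxygen level is uncertain; the text is the same for both groups. What separates replicates 1 and 2 of a group is not given beyond the word biological, so p-values measure the spread between these libraries.

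The writer complex methylates adenosines in the nucleus, mostly within the sequence family named DRACH and often near stop codons. Readers then decide much of what happens to a marked transcript. YTHDC1 acts in the nucleus on splicing and export, the YTHDF proteins act in the cytoplasm on decay and translation, and the IGF2BP proteins are best known for stabilising the RNAs they bind. FTO and ALKBH5 take the methyl group off again, with iron and 2-oxoglutarate as cofactors. In breast cancer these genes are studied because reader or eraser levels can change the outcome of the same mark.

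The 10 genes are themselves transcribed into mRNAs that can hold the motif. The letters GGACT, a common spelling of the DRACH motif, were searched on the sense strand of the canonical transcript of each gene (GENCODE 44, GRCh38), within 100 bases on either side of the end of the stop codon. The motif was present in this 200-base window in 2 of the 10 transcripts, those of YTHDF2 and ALKBH5, beside 22.0% of 18448 protein-coding canonical transcripts. Every member holds the motif somewhere in its transcript, and the sites below were picked by results given later. They are those closest to the stop codon in the 3 genes called changed in the main test (YTHDF2 not under every scaling), and the only site of YTHDF1, which is the most abundant member. Each is written 5′ to 3′ on the transcript strand, with GGACT in capitals.
YTHDF2 (chr1:28769020-28769044, plus strand): aagagaattaGGACTtttttcttaa
ALKBH5 (chr17:18208329-18208353, plus strand): agtcctcagaGGACTgctctgaggc
YTHDC1 (chr4:68312962-68312986, minus strand): cttcataaatGGACTtttaaccctc
YTHDF1 (chr20:63202558-63202582, minus strand): agtcccccgtGGACTacggcaccag
The A of the motif lies 80 bases after the last base of the stop codon in YTHDF2 and 55 bases before it in ALKBH5. It lies 1125 bases after it in YTHDC1 and 310 bases before it in YTHDF1. Methylation was not measured in the libraries used here, so these are matches of letters.

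Depth ranged from 81446932 to 86375474 counts per library. VIRMA itself, listed under its older symbol KIAA1429, went from 710 and 682 counts in the control cells to 3437 and 3460, a log2 fold change of 2.29. These counts can hold reads of the vector's VIRMA coding sequence as well as of the cell's own mRNA. Of 8 breast epithelial markers, 7 were expressed above the filter on low values, and CDH1, which SKBR3 cells are known to have lost, had 5 to 33 counts. The 8 summed to 26100 to 26600 CPM (counts scaled to library size) in the controls and 23600 to 23800 in VIRMA-overexpressing cells. They did not move together: without overlap between the groups, 4 were higher in VIRMA-overexpressing cells and 3 lower. GRB7, for example, had a log2 fold change of 0.43 and KRT8 of -0.51. Many markers of other cells differed between the groups, beside 84.3% of all tested genes whose groups did not overlap in CPM. Few of these markers passed the filter: 1 of 7 erythroid, 0 of 5 leukocyte, and 2 of 6 fibroblast and endothelial markers. The 7 erythroid markers used here were lower in both VIRMA-overexpressing libraries than in both controls, with summed levels of 20.5 to 28.3 against 0.326 to 0.484 CPM, and HBB, HBD, SLC4A1 and AHSP at 0 counts in both VIRMA-overexpressing libraries. The same held for 4 of 5 leukocyte markers (2.12 to 3.25 against 1.57 to 1.73 CPM), of which PTPRC had 23 and 13 against 3 and 0 counts, whereas CD3E was higher, with 73 and 60 against 87 and 90 counts. It also held for 4 of 6 fibroblast and endothelial markers (18.6 to 19.6 against 15.5 to 16.8 CPM), whereas CDH5 rose by 0.47 on the log2 scale (edgeR adjusted p 0.00114). The part of such RNA in the results was not tested. Fewer cells that carry a transcript and less of it per cell cannot be told apart in these bulk libraries.

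Levels of different genes were compared as RPKM, in which counts are divided by exonic length and by the library total, which takes out gene length. RPKM lacks the scaling between libraries that the test of the groups used. With library totals alone, the median gene moved by 0.086 on the log2 scale towards VIRMA-overexpressing cells. Changes between the groups are therefore read from the test and not from RPKM. The readers and erasers fell into 2 groups. The 5 YTH readers, FTO and ALKBH5 had RPKM above 1 in all 4 libraries, the level used as the filter for testing, and the 3 IGF2BP genes stayed at or below 0.0807.

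YTHDF1 (chromosome 20, 63195429 to 63216234, minus strand), a cytoplasmic reader linked to translation, had the highest level of all members, at 43.4 ± 0.369 RPKM in the controls and 45.9 ± 0.471 in VIRMA-overexpressing cells (SD, n = 2). YTHDF2 (chromosome 1, 28736621 to 28769775, plus strand), the reader that brings the CCR4-NOT deadenylase to methylated mRNAs, followed at 22.1 ± 0.395 and 21.2 ± 0.525 RPKM. The demethylase ALKBH5 (chromosome 17, 18183078 to 18209954, plus strand) came next at 21.4 ± 0.373 and 19.7 ± 0.348. These 3 mRNAs stood well above the other members in every library.

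YTHDC1 (chromosome 4, 68310387 to 68350089, minus strand), the nuclear reader, followed at 6.86 ± 0.297 RPKM in the controls and 9.52 ± 0.370 in VIRMA-overexpressing cells. YTHDF3 (chromosome 8, 63168553 to 63212786, plus strand), the third cytoplasmic paralogue, was at 6.16 ± 0.115 and 6.99 ± 0.427. FTO (chromosome 16, 53701692 to 54158512, plus strand), the other demethylase, was at 1.43 ± 0.0962 and 1.52 ± 0.0352. YTHDC2 (chromosome 5, 113513683 to 113595285, plus strand), a reader with an RNA helicase domain that is best known from germ cells, was lowest at 1.28 ± 0.162 and 1.44 ± 0.0273. In the controls the ranges of FTO and YTHDC2 overlapped, and every other pair of neighbours in this order was separate in both groups.

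**Figure D1:**
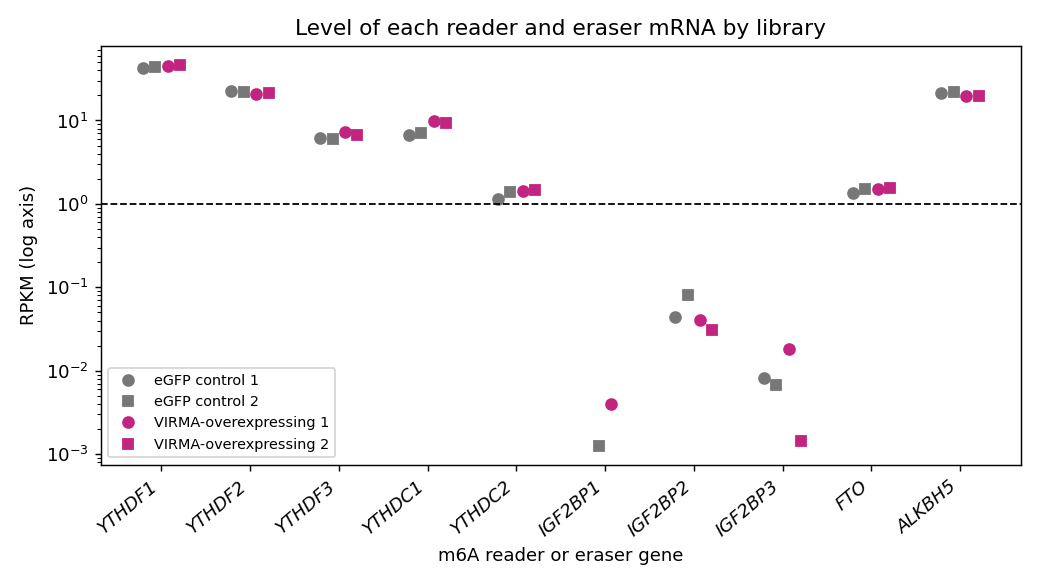
Points give the RPKM (log axis) of each reader or eraser in each of the 4 libraries, grey for eGFP control and magenta for VIRMA-overexpressing, circles for replicate 1 and squares for replicate 2, and the dashed line marks an RPKM of 1. The 7 expressed members lie above the line in every library and the IGF2BP genes at or below 0.0807; the 2 libraries with 0 counts of IGF2BP1 have no point.

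These levels depend on the length used. The deposited exonic length joins all exons of all transcripts, which gives FTO 21379 bases against 11573 in its canonical transcript, and YTHDC2 10816 against 6305. With canonical lengths, an alternative chosen after seeing the data, FTO was at 2.65 ± 0.178 RPKM and YTHDC2 at 2.19 ± 0.277 in the controls. The order of the 7 genes was the same in both groups, but the control ranges of FTO and YTHDC2 no longer overlapped while those of YTHDC1 (7.50 and 7.97) and YTHDF3 (7.35 and 7.55) did.

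VIRMA moved across this order. On the deposited length it was at 0.753 ± 0.0275 RPKM in the controls, below YTHDC2, and at 3.90 ± 0.0685 in VIRMA-overexpressing cells, between FTO and YTHDF3. The second value is uncertain, since that length is of the cell's own gene and the vector carries the coding sequence. The catalytic writer METTL3 had 9.59 and 9.70 RPKM in the controls and 11.7 and 10.5 in VIRMA-overexpressing cells, so its level lay between those of YTHDC1 and ALKBH5 in each of the 4 libraries.

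The comparison of the 2 groups asks whether raising VIRMA goes with a change in the mRNAs of the proteins that read or remove its mark. A difference between the sorted cell populations and an effect of VIRMA cannot be told apart. All 7 expressed members were tested, each having passed the filter in both groups. YTHDC1 rose, YTHDF2 and ALKBH5 fell, and YTHDF1, YTHDF3, YTHDC2 and FTO did not pass an edgeR adjusted p of 0.05. No member passed a 2-fold change. These 3 calls of 7 stand beside 71.0% of all 12205 tested genes at the same threshold, with 35.1% higher and 35.9% lower, and 7.46% of tested genes passed it together with a 2-fold change. The median log2 fold change of the 7 members was 0.00, against 0.012 over all tested genes, whose median absolute log2 fold change was 0.34.

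YTHDC1 had 48.47 and 51.80 CPM in the controls and 67.29 and 64.06 CPM in VIRMA-overexpressing cells. Both VIRMA-overexpressing libraries lay above both controls. The mRNA of this nuclear reader was 1.31-fold higher, or 0.39 on the log2 scale with an SE of 0.0450 and an edgeR adjusted p of 1.47e-09. It was the one member whose absolute log2 fold change exceeded the median of all tested genes, and 56.5% of tested genes had a smaller one. The call held under all 8 alternatives with all libraries (0.346 to 0.475) and under the 4 that left out 1 library (0.338 to 0.438).

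ALKBH5 had 69.91 and 72.03 CPM in the controls and 60.60 and 62.50 CPM in VIRMA-overexpressing cells. The groups did not overlap. The mRNA of this demethylase fell to 0.867 of its control level, or -0.21 on the log2 scale with an SE of 0.0411 and an edgeR adjusted p of 3.84e-05. The call held under the same 12 alternatives, from -0.249 to -0.12. It reached -0.12 with library totals alone, where the edgeR adjusted p was 0.0106. A row on the opposite strand, RP11-258F1.1, shares 357 exonic bases with ALKBH5 and had 0 to 5 counts per library.

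YTHDF2 had 89.54 and 87.76 CPM in the controls and 78.79 and 82.07 CPM in VIRMA-overexpressing cells, again without overlap. The level fell to 0.907 of that in the controls, or -0.14 on the log2 scale with an SE of 0.0386 and an edgeR adjusted p of 0.00162. This small fall depended on the scaling: it was -0.069 with upper-quartile factors (edgeR adjusted p 0.109) and -0.055 with library totals alone (edgeR adjusted p 0.206). The row YTHDF2P1, by its symbol a pseudogene that could share reads with YTHDF2, had 3 to 11 counts per library.

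**Figure D2:**
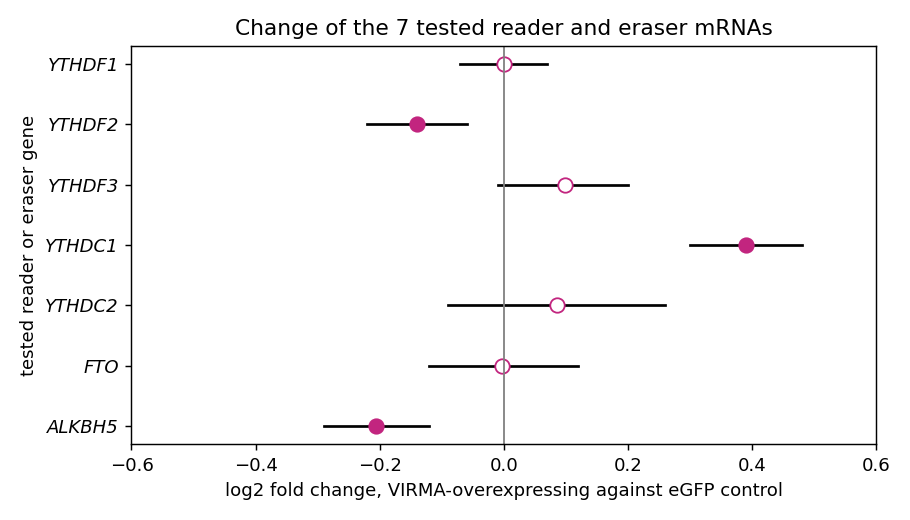
Circles give the log2 fold change of each tested member in VIRMA-overexpressing against eGFP control cells (2 libraries each) and lines its 95% confidence interval from the edgeR fit, with filled circles for an adjusted p below 0.05. YTHDC1 lies at 0.39, ALKBH5 at -0.21 and YTHDF2 at -0.14 (YTHDF2 not passing with upper-quartile factors or library totals), and the intervals of the other 4 members include 0.

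For the members that did not pass, the intervals limit the size of a change. YTHDF1 had 147.5 and 150.0 CPM in the controls and 147.3 and 150.3 CPM in VIRMA-overexpressing cells. The values of the 2 groups were interleaved, and the log2 fold change was 0.00 with a 95% interval of -0.07 to 0.07 (edgeR adjusted p 0.999). Scaling by library totals alone gave 0.086, which passed (edgeR adjusted p 0.0216).

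FTO was as even. It had 30.26 and 33.45 CPM in the controls and 31.18 and 32.41 CPM in VIRMA-overexpressing cells, so that both VIRMA-overexpressing libraries fell between the controls. The log2 fold change was -0.003 with a 95% interval of -0.12 to 0.12 (edgeR adjusted p 0.971). It turned positive with upper-quartile factors (0.069) and library totals alone (0.083), and did not pass under any alternative.

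YTHDF3 had 39.88 and 39.04 CPM in the controls and 43.93 and 40.53 CPM in VIRMA-overexpressing cells. The groups did not overlap, but the 2 VIRMA-overexpressing libraries differed more from each other than the lower one did from the controls. The log2 fold change was 0.10 with a 95% interval of -0.01 to 0.20 (edgeR adjusted p 0.0877). It passed with upper-quartile factors (0.169, edgeR adjusted p 0.00405), with library totals alone (0.184, edgeR adjusted p 0.00246) and without VIRMA-overexpressing replicate 2 (0.155, edgeR adjusted p 0.0202). A separate row, YTHDF3-AS1, whose exons do not overlap those of YTHDF3, went from 119 and 76 counts to 62 and 67.

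YTHDC2 had 13.05 and 15.70 CPM in the controls and 15.01 and 15.51 CPM in VIRMA-overexpressing cells. It had the widest interval of the tested members, from -0.09 to 0.26 around a log2 fold change of 0.09 (edgeR adjusted p 0.372). The controls decided the value, which was 0.225 without eGFP control replicate 2 (edgeR adjusted p 0.0436) and -0.045 without eGFP control replicate 1 (edgeR adjusted p 0.702). The tested members whose groups did not overlap in CPM were YTHDC1, ALKBH5, YTHDF2 and YTHDF3, 4 of 7, beside 84.3% of all tested genes.

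The IGF2BP readers were close to the limit of detection. Of these RNA-binding proteins, IGF2BP1 and IGF2BP3 are oncofetal: they are abundant in embryonic tissue and come back in some tumours. IGF2BP2 (chromosome 3, 185643739 to 185825056, minus strand) was counted 18 and 33 times in control cells against 16 and 12 times in VIRMA-overexpressing cells. IGF2BP3 (chromosome 7, 23310209 to 23470467, minus strand) was counted 6 and 5 times against 13 and 1. IGF2BP1 (chromosome 17, 48997412 to 49055650, plus strand) had 0 and 1 counts against 3 and 0.

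Over the whole family this was 13 to 39 counts per library, whereas YTHDC2, the expressed member with the fewest counts, had 1075 or more. A count of 0 allows up to 3 counts, or 0.0362 to 0.0364 CPM in the libraries where IGF2BP1 had none. The ratio of VIRMA-overexpressing to control counts, adjusted for depth, was 0.541 for IGF2BP2 (exact 95% interval 0.329 to 0.875), 1.25 for IGF2BP3 (0.529 to 3.05) and 2.96 for IGF2BP1 (0.238 to 155). These intervals cover counting error only, and the control libraries of IGF2BP2 differed from each other by 15 counts. In the edgeR fit with no filter the log2 fold change of IGF2BP2 was -0.92 (edgeR adjusted p 0.36), that of IGF2BP3 0.27 (edgeR adjusted p 0.915) and that of IGF2BP1 1.32 (edgeR adjusted p 0.812). With filterByExpr IGF2BP2 was tested, at -0.92 (SE 0.658, edgeR adjusted p 0.268).

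The exons of IGF2BP3 share 1521 bases with MALSU1 on the opposite strand, a gene with 2492 to 3791 counts per library. Whether counting used strand is not given in the sources used here, so reads of these genes may not have been told apart there. The antisense gene IGF2BP2-AS1 had 0 or 1 counts, and the 2 rows that overlap IGF2BP1 on the opposite strand had 0 in every library.

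Paralogues were also compared as shares of their family, since the 3 YTHDF proteins bind the same mark. Of the summed RPKM of the YTHDF family, YTHDF1 made up 60.1% and 61.0% in the controls and 61.8% and 62.1% in VIRMA-overexpressing cells. YTHDF2 made up 31.2% and 30.5% against 28.3% and 29.0%. YTHDF3 made up 8.70% and 8.50% against 9.88% and 8.96%. Thus the share of YTHDF2 was lower by 2.22 points on average, that of YTHDF1 higher by 1.40 and that of YTHDF3 higher by 0.82, without overlap between groups. The YTHDF3 difference rested on the VIRMA-overexpressing libraries: it was 0.36 points without replicate 1 and 1.28 without replicate 2. An exact two-sided permutation test of each gave p = 0.333, the smallest that 2 libraries against 2 allow. A share does not depend on the scaling between libraries, but it does depend on the length used. With canonical lengths YTHDF1 made up 53.3% and 54.2% in the controls against 55.2% and 55.4% in VIRMA-overexpressing cells. YTHDF2 then made up 37.7% and 36.9% against 34.4% and 35.2%, so the order of the groups was the same.

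ALKBH5 made up 93.9% and 93.5% of the summed RPKM of the 2 demethylases in the controls and 92.9% and 92.8% in VIRMA-overexpressing cells, a mean difference of -0.88 points (exact permutation p = 0.333). With canonical transcript lengths, which are shorter for FTO, ALKBH5 made up 89.4% and 88.8% against 87.7% and 87.6%. The order of the groups was the same with either length, whereas the share itself moved with the length of FTO. Among the few counts of the IGF2BP family, IGF2BP2 made up 84.4%, 90.9%, 64.5% and 95.6% of the summed RPKM in the 4 libraries, and the groups overlapped (exact permutation p = 1).

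**Figure D3:**
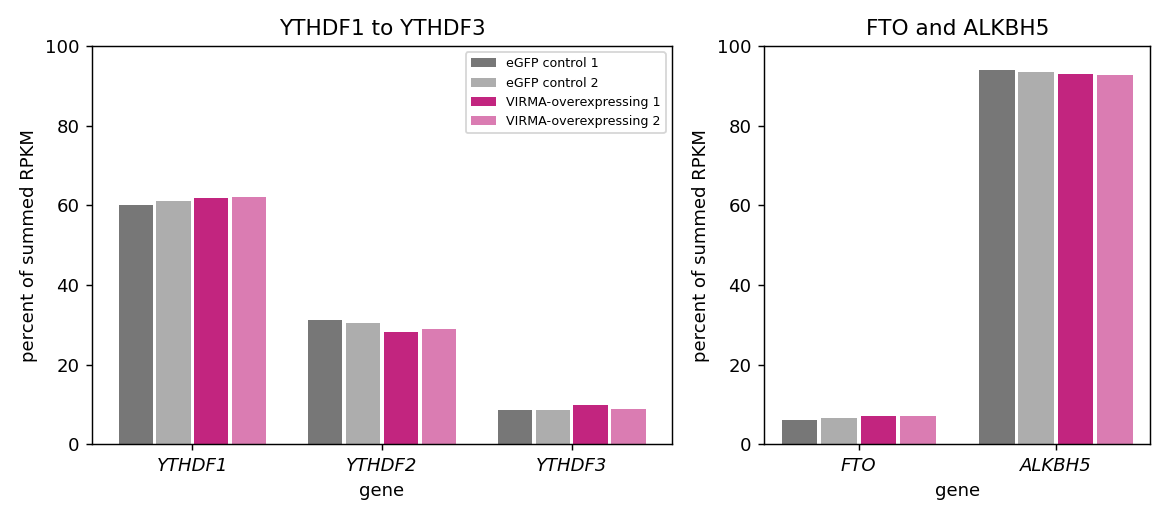
Bars give the percent of the family's summed RPKM taken by each gene in each library (linear axis from 0 to 100), for YTHDF1 to YTHDF3 on the left and for FTO and ALKBH5 on the right, grey for eGFP control and magenta for VIRMA-overexpressing, with replicate 2 in the lighter shade. With the deposited exonic lengths drawn here, YTHDF1 takes 60.1% to 62.1% and ALKBH5 92.8% to 93.9% in every library. The share of YTHDF2 falls from 31.2% and 30.5% to 28.3% and 29.0%.

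Other genes of the pathway were read from the same fit, and their counts stand beside the 35.1% of all tested genes called higher and the 35.9% called lower. Of the 7 writer complex genes besides VIRMA, 3 were higher and 3 lower at an edgeR adjusted p below 0.05. With DESeq2 size factors in edgeR the count was 2 and 3, as CBLL1 did not pass (edgeR adjusted p 0.0595). It became 3 and 1 under upper-quartile scaling and under library totals alone. The smallest adjusted p belonged to RBM15B (-0.35), ZC3H13 (0.28) and WTAP (-0.14; not passing with those 2 scalings). Among 5 other m6A methyltransferase genes 1 was higher, METTL5 (0.22), which methylates ribosomal RNA, and 1 lower, its partner TRMT112 (-0.44), while ZCCHC4 had 0.31 and an edgeR adjusted p of 0.0698 (passing with those 2 scalings).

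Of 12 further RNA-binding proteins that have been linked to m6A, 3 were higher and 8 lower (7 with upper-quartile factors or library totals), with a median log2 fold change of -0.20 that became -0.126 and -0.111 with these scalings. ELAVL1 (-0.52), HNRNPA2B1 (-0.36) and G3BP2 (-0.45) had the smallest adjusted p. Of 8 tested partners of the readers 4 were higher and 2 lower, among them SRSF3 (-0.47), a splicing factor that works with YTHDC1, UPF1 (-0.35) and PABPC1 (0.29). Of 11 subunits of the CCR4-NOT deadenylase, which YTHDF2 recruits, 2 were higher and 3 lower (2 lower with the same scalings, where CNOT7 did not pass), with CNOT2 at 0.32, CNOT9 at -0.20 and CNOT6 at -0.19.

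The 7 other AlkB homologues, relatives of FTO and ALKBH5, had 2 higher and 3 lower (3 and 3 with those scalings, where ALKBH6 passed), with ALKBH4 at -0.50, ALKBH2 at -0.32 and ALKBH3 at 0.39. Of a list of 7 transcripts known to be bound by IGF2BP proteins, the 3 that could be tested were lower, with H19 at -0.93, ACTB at -0.38 and MYC at -0.40. The list did not move one way: CD44, which was under the filter on low values and named after its values were seen, went from 284 and 301 counts to 610 and 456. The S-adenosylmethionine cycle supplies the methyl group. Of 6 tested genes for its enzymes and their relatives, 4 were higher and 2 lower, with AHCY at -0.48, MAT2A at 0.30 and MTR at 0.63. Of 5 enzymes that make or use 2-oxoglutarate or its reduced form, 1 was higher and 3 lower (2 lower with those scalings, where IDH1 did not pass), with IDH2 at -0.37, OGDH at -0.34 and D2HGDH at 0.32. No gene of these 9 lists passed both thresholds.

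**Figure D4:**
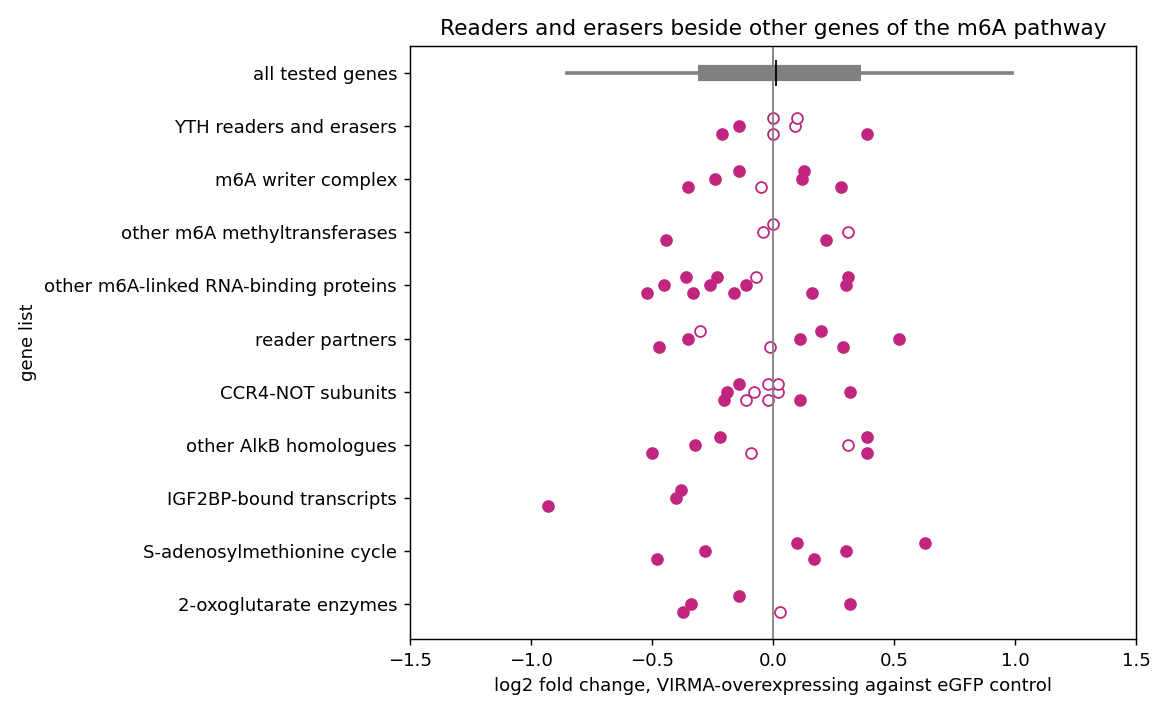
Circles give the log2 fold change of each tested gene in a list (filled for an edgeR adjusted p below 0.05, spread vertically within a row for legibility), and the top row gives all 12205 tested genes, with a tick at the median, a thick bar from the 25th to the 75th percentile (-0.31 to 0.36) and a thin bar from the 5th to the 95th (-0.85 to 0.99). The 7 readers and erasers lie between -0.21 and 0.39, and H19 at -0.93 is the lowest value drawn in a list.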

How the data were processed

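Poly-A libraries of 4 SKBR3 samples were made with a stranded kit. Per the submitters' processing notes and the study's methods, the authors trimmed reads with Trimmomatic 0.39, aligned them to hg38 with STAR 2.5.2a and ran featureCounts. The counts they deposited are whole numbers of reads for each gene, without normalization. The strand setting and the treatment of reads with several alignments are not given in the sources used here, so values of overlapping and near-identical genes are uncertain. The 2 VIRMA-overexpressing columns carry a number where a group name would stand, and are taken as the one group left. Positions are those of the deposited exons on GRCh38.

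RPKM used each library's total and the exonic length given in the deposited table. Genes needed an RPKM above 1 in 2 or more libraries, and the 12205 that had it entered edgeR 4.0.16 (R 4.3.3; quasi-likelihood test, TMM, group as the only term, Benjamini-Hochberg adjustment over all tested genes). CPM is scaled by TMM. Intervals are at 95%. On simulated counts for the 12205 genes of this comparison, the test recovered 90% of genes changed 1.5-fold and 99% of genes changed 2-fold, and called 9 unchanged genes. In the simulation 100 genes changed at each fold, as many up as down, and every gene had the same spread. In the data 71.0% of genes were called and every tested member changed by less than 1.5-fold. The simulation therefore gives no error rate for the members' calls. Alternatives were DESeq2 1.42.0, voom of limma 3.58.1, other scalings and filters, the replicate number as a block, and leaving out each library.

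All members are named, and from each other list the 3 tested genes with the smallest adjusted p. The members and lists were chosen with earlier results of these data known. One marker of the erythroid list is not reported here.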

Additional observations from a re-analysis of the deposited data

How the results depend on the processing

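Over the alternatives with all 4 libraries, YTHDC1 and ALKBH5 kept their direction and their call. Upper-quartile factors moved the median gene by 0.072 and library totals alone by 0.086, and the members moved by about as much: YTHDF2 became -0.069 and -0.055 and no longer passed, YTHDF3 became 0.169 and 0.184 and passed, FTO turned to 0.069 and 0.083, and the median of the 7 members became 0.072 and 0.086. YTHDF1 passed with library totals alone (0.086). The members called were then 2 higher and 1 lower with upper-quartile factors and 3 higher and 1 lower with library totals. YTHDF1, at 5.7e-05, turned negative with no filter (-0.034), filterByExpr (-0.044), DESeq2 size factors in edgeR (-0.004), DESeq2 (-0.004) and limma-voom (-6.7e-05), without passing. With no filter 1137 genes were higher and 820 lower past both thresholds, and with filterByExpr 1044 and 808, in place of 552 and 358, with 33976 and 20568 genes tested. As shares of counts, the difference of YTHDF3 was 1.31 points and that of ALKBH5 -3.1, and with canonical lengths that of ALKBH5 was -1.45.

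Leaving out 1 library leaves a lone sample in a group, which is assumed to vary like the other group. YTHDF1 then ran from -0.017 to 0.015, YTHDF2 from -0.17 to -0.111, YTHDF3 from 0.038 to 0.155, YTHDC1 from 0.338 to 0.438, YTHDC2 from -0.045 to 0.225, FTO from -0.078 to 0.071 and ALKBH5 from -0.231 to -0.183. Between 1 and 2 members were called higher and 2 lower, and the median of the members ran from -0.045 to 0.071. The share differences of YTHDF1 ran from 0.95 to 1.85 points, of YTHDF2 from -2.57 to -1.87, of YTHDF3 from 0.36 to 1.28 and of ALKBH5 from -1.09 to -0.68. The IGF2BP2 share difference, -7.58 points, ran from -23.09 to 7.94, positive without VIRMA-overexpressing replicate 1.

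The libraries share only a replicate number: deviations of same-numbered libraries correlated at 0.0346 across genes. Under the replicate block no member changed its call, and YTHDC1 was at 0.39 and ALKBH5 at -0.205. Depth limited the IGF2BP genes, with at most 33 counts each in a library.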

Other observations

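Genes whose profile over the 4 libraries was closest to that of a member were found by the Euclidean distance between log2 CPM values centred on each gene's own mean. For YTHDC1, the YTH reader with the largest change, these were KIFAP3 (distance 0.0199), AGO1 (0.0201), an Argonaute protein of the microRNA pathway, and ABCA4 (0.0263), with log2 fold changes of 0.37, 0.41 and 0.37. For ALKBH5 they were RPL28 (0.00332), KLF10 (0.00569) and TMEM161A (0.0105), with -0.21, -0.21 and -0.20. With 4 libraries in 2 groups such a profile is shared widely: 371 genes lay within a distance of 0.1 of YTHDC1 and 873 of ALKBH5.

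H19, a long non-coding RNA to which IGF2BP proteins are known to bind, went from 995601 and 998783 counts in control cells to 535513 and 529223 in VIRMA-overexpressing cells, or 4130 and 4090 RPKM against 2290 and 2300, in cells where the 3 IGF2BP mRNAs together had 13 to 39 counts. Its neighbour IGF2, the mRNA that gave the IGF2BP proteins their name, had 17 and 36 counts against 33 and 31.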
